A study of Mus musculus with 8 samples.

Results

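The genes of transforming growth factor beta (TGF-beta), bone morphogenetic protein (BMP) and activin signalling were followed in neonatal mouse heart muscle cells. The set has 47 genes, chosen by symbol for their known place in the pathway, out of 48440 entries of the count table. It takes in ligands, receptors, Smads, Id targets, latent binding proteins and antagonists. The choice was made with earlier results of these data known, although the rule itself names symbols and no measured value. RNA came from cardiomyocytes purified from C57BL6/J mouse hearts on postnatal day 2, and the labels name no altered allele and no treatment. Each of 4 litters gave 1 male and 1 female heart, which makes 8 libraries, 4 per sex and 2 per litter. How the cells were purified is not given in the sources used here.

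TGF-beta, BMPs and activins are secreted dimers that bring a type II and a type I receptor together at the cell surface, where the type II receptor activates the type I kinase. The activated receptor phosphorylates Smads: as a rule Smad2 and Smad3 for TGF-beta and activin, and Smad1, Smad5 and Smad9 for BMPs. These join Smad4, enter the nucleus and switch target genes, of which the Id genes are the classic BMP targets. In the developing heart, BMP signals through Bmpr1a and Bmp10 are known for their part in growth of the trabeculated myocardium, and TGF-beta and BMP signals for valve formation.

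Total counts ran from 14226342 to 24910243 per library. The 10 cardiomyocyte markers, such as Myh6 and Tnnt2, had no gene at 0 in any library and summed to between 57375 and 72008 CPM, a read count scaled so that libraries of different depth can be compared. Markers of other cells were present at much lower sums. Fibroblast markers (11 genes) summed to between 36.6 and 273 CPM and endothelial markers (19 genes) to between 31 and 253 CPM, with no gene of either list at 0 in any library except 1 endothelial marker in the litter 3 male. Macrophage markers (12 genes) summed to between 5.83 and 10.2 CPM, with Fcgr1 and Cd163 at 0 in all 8 libraries. Litter 3 stood apart, with 28.3% of all genes tested off the mean of the other litters, against 13.3%, 4.18% and 10.5% for litters 1, 2 and 4. Mitochondrial genes took 18.5% of counts in the litter 4 male and 13.4 to 15.2% in the other libraries. In RNA from many cells, a smaller number of cells of one type and less RNA per cell cannot be told apart.

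Of the 47 genes, 42 had enough counts to be tested. The 5 left out were Bmpr1b, a BMP type I receptor with 0 to 11 counts per library, myostatin (Mstn, 0 to 7 counts), and the secreted antagonists Fst (0 to 6), Nog (0 to 4) and Grem1. Grem1 had 0 counts in every library, which allows a level of up to 0.0171 CPM over the 8 libraries together. Of the secreted binding antagonists listed, only Fstl3, a follistatin-like activin inhibitor, reached the test. Its level is uncertain, since 57% of the windows of 100 bases in its longest transcript also occur in Prss57 on the opposite strand and use of the strand in counting is not stated. The same holds for Bmp5, with 47.8% of windows in the noncoding gene Gm26903 on the opposite strand. Ltbp2 shared 9.97% of its windows, Acvr2a 6.21% and Tgfb3 5.88%, and the other tested members shared under 5.88%.

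Among receptors, Bmpr1a, the type I receptor for several BMPs, had the highest level of all members. It stood at 33.3 ± 3.15 CPM per kilobase of exon (SD, n = 8), the scale on which levels of different genes are compared here. The activin type I receptor Acvr1b had 12.6 ± 0.870, the TGF-beta coreceptor Tgfbr3 (betaglycan) 8.19 ± 1.02 and the activin type II receptor Acvr2a 6.84 ± 0.631 CPM per kilobase. Bmpr2, the BMP type II receptor, had 5.58 ± 1.12. The TGF-beta receptors themselves were lower, with 4.44 ± 0.241 for Tgfbr1 and 1.05 ± 0.328 CPM per kilobase for Tgfbr2. Acvrl1 (ALK1), a type I receptor best known from endothelial cells, was among the lowest of the tested members at 0.172 ± 0.151 CPM per kilobase.

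Among ligands, Bmp7 exceeded all others at 13.5 ± 0.828 CPM per kilobase (SD, n = 8). Next came Tgfb2 at 2.13 ± 0.327 and Bmp10, a ligand made by heart muscle, at 1.75 ± 1.79 CPM per kilobase. Bmp5, Tgfb1 and Tgfb3 followed at 1.52 ± 0.299, 1.24 ± 0.281 and 1.18 ± 0.305, and neighbours in this order overlap within 1 SD. The activin subunits Inhba and Inhbb had 0.183 ± 0.0577 and 0.433 ± 0.0897, and Bmp2, Bmp4 and Bmp6 had means of 0.337, 0.225 and 0.158 CPM per kilobase. The lowest library of Bmp7 had 47.4 CPM and the highest 57.6 CPM, so this ligand was nearly level across the series.

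Inside the cell, Smad4, the partner shared by both branches, had 14.8 ± 2.01 CPM per kilobase (SD, n = 8) and the BMP Smad Smad5 had 10.2 ± 0.909. Smad3 stood at 6.71 ± 0.369 and Smad2, the other TGF-beta Smad, at 2.49 ± 0.218, while the BMP Smads Smad1 and Smad9 had 1.73 ± 0.206 and 0.405 ± 0.0739 CPM per kilobase. The ubiquitin ligases Smurf2 and Smurf1, which mark receptors and Smads for breakdown, had 8.99 ± 0.854 and 6.80 ± 0.619. The inhibitory Smads Smad6 and Smad7 had 4.59 ± 0.625 and 3.29 ± 0.461. Genes of the latent TGF-beta binding protein family, most of whose members hold TGF-beta in the matrix, ranged from 9.82 ± 1.28 for Ltbp3 to 0.139 ± 0.105 CPM per kilobase for Ltbp2. The BMP targets were modest: Id2 had 2.95 ± 0.970, Id3 1.64 ± 0.915, Id1 0.784 ± 0.323 and Id4 0.198 ± 0.0412.

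The 10 highest members per kilobase were Bmpr1a, Smad4, Bmp7, Acvr1b, Smad5, Ltbp3, Smurf2, Tgfbr3, Acvr2a and Bambi. Bmpr1a stood clear of the second, Smad4, and Acvr1b of Smad5, since their ranges of 1 SD around the mean did not meet. All other neighbours in this order overlapped within 1 SD. With the longest transcript in place of all exons as the length, a choice made after seeing the data, 8 of the 10 stayed, and Ltbp1 and Smurf1 took the places of Acvr2a and Bambi.

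**Figure D1:**
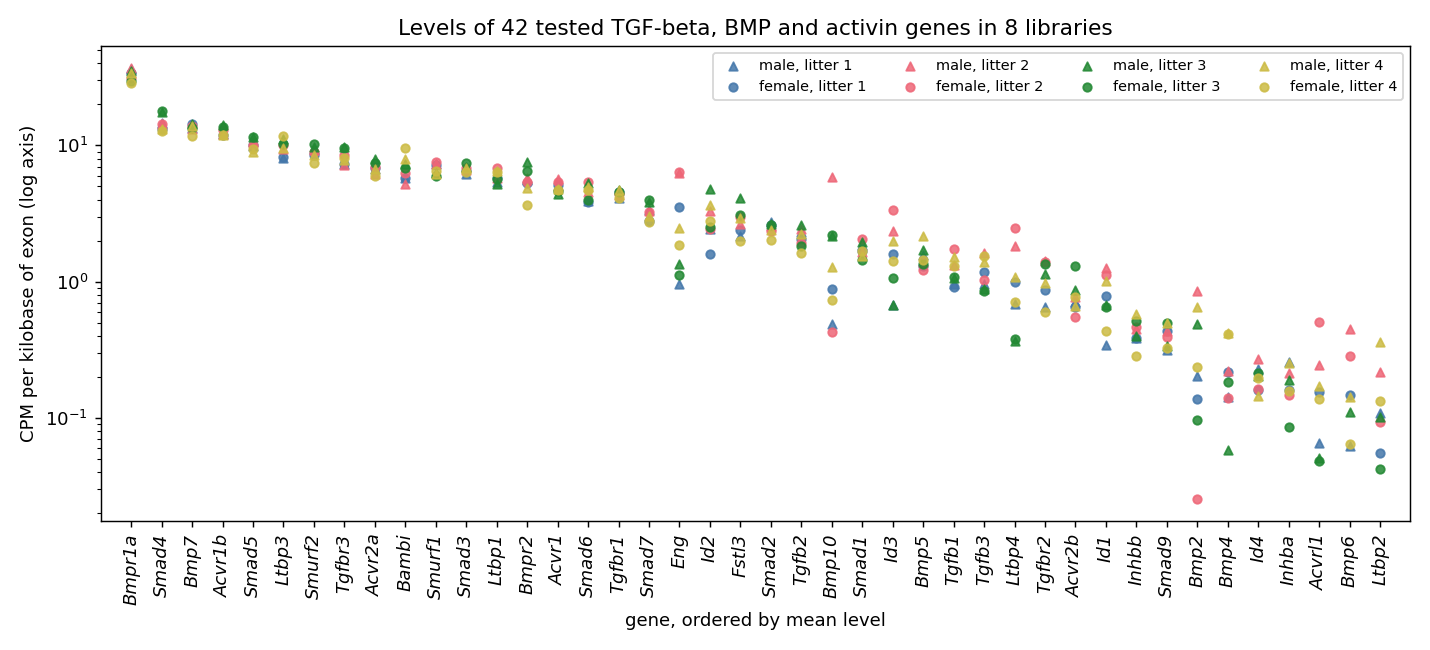
Levels of the 42 tested genes in CPM per kilobase of exon on a log axis, ordered by mean, with 1 point per library (triangle for male, circle for female, colour by litter). A library at 0 has no point. Bmpr1a lies highest at a mean of 33.3 and Ltbp2 lowest at 0.139, and points of genes such as Eng, Bmp10 and Bmp2 spread far more than those of Bmp7 or Tgfbr1.

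The first comparison asked whether the genes differed between litters. They did for 17 of the 42 tested members (40.5%), by edgeR's quasi-likelihood F test of the 3 litter terms together, in a model with sex, at an adjusted p-value under 0.05. Over all 13771 genes tested, 32.1% passed. The median range over litters (highest minus lowest litter) was 0.44 on the log2 scale for the members and 0.37 for all genes. By role, 1 of 3 TGF-beta ligands passed, 3 of 4 TGF-beta receptors and coreceptors, 1 of 2 antagonists, 1 of 4 activin and BMP type I receptors, 1 of 3 type II receptors, 1 of 6 BMP ligands, 2 of 6 receptor and common Smads, 2 of 4 inhibitory Smads and Smurfs, 2 of 4 Id genes and 3 of 4 latent binding proteins. Neither of the 2 tested activin subunits passed. A range of at least 1 was found for 6 members (14.3%) that passed, against 7.62% of all genes: Eng, Acvrl1, Bmp6, Id3, Ltbp2 and Ltbp4. Without litter 3, 12 members passed (28.6%, against 13.7% of all genes), all among the 17, and Tgfbr3, Smad4, Smad5, Smad7 and Smurf1 did not. When the litter 1 male or the litter 1 female was left out, 11 members passed.

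**Figure D2:**
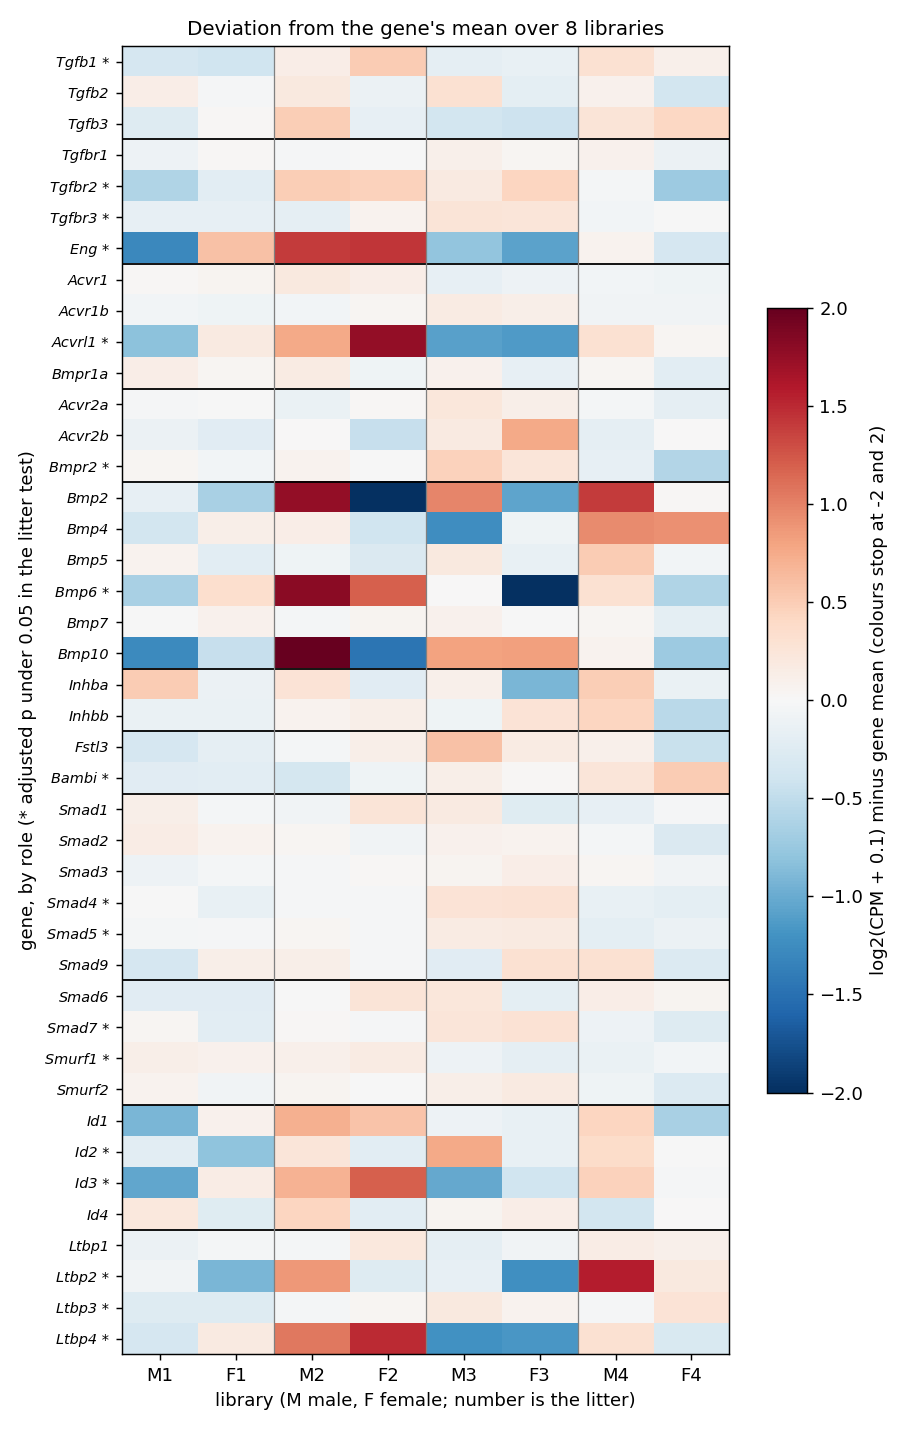
Deviation of log2(CPM + 0.1) from each gene's mean over the 8 libraries, for the 42 tested genes grouped by role, with columns for the male (M) and female (F) of litters 1 to 4; colours stop at -2 and 2, and an asterisk marks the 17 genes past the threshold in the litter test. Eng, Acvrl1, Id3 and Ltbp4 are darkest red in the litter 2 columns and blue in those of litter 3.

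A first group of members was high in litter 2. Eng (endoglin), a coreceptor for TGF-beta and BMP9 and BMP10 that is abundant in endothelial cells, lies at chr2:32646595-32682669 (GRCm38). Its level was 3.89, 25.5, 5.5 and 10.1 CPM in the males of litters 1 to 4 and 14.4, 26.0, 4.54 and 7.55 CPM in the females. Both litter 2 libraries lay above all others, and the 2 hearts of litter 1 were far apart. Eng rose in litter 2 against the mean of the other litters by 1.81 (SE 0.27, edgeR adjusted p = 0.00269), though not without the litter 2 male (1.59, 0.0574) or with DESeq2 (0.0532). Its range over litters was 2.32 (adjusted p = 0.00273), and 0.268 was the adjusted p once litter 2 was left out. Acvrl1, the receptor that works with endoglin, had 0.281, 1.04, 0.217 and 0.725 CPM in the males and 0.658, 2.16, 0.206 and 0.587 CPM in the females, from 3 to 48 counts. In both sexes litter 2 was highest and litter 3 lowest. It rose in litter 2 by 1.93 (SE 0.34, edgeR adjusted p = 0.00733), but the adjusted p was 0.266 without the litter 2 female, and that of its range over litters moved from 0.00617 to 0.071. Left without litter 2, the range of Acvrl1 had 0.154.

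Id3, a BMP target that blocks basic helix-loop-helix factors, followed a like course. Males had 1.20, 4.24, 1.21 and 3.57 CPM and females 2.88, 6.02, 1.92 and 2.52 CPM in litters 1 to 4. It was highest in litter 2 in both sexes, with a log2 difference of 1.27 (SE 0.25, edgeR adjusted p = 0.0134). That call was lost without the litter 2 male (0.0982) or the litter 2 female (0.19), while the range over litters of 1.72 (0.00859) was lost without litter 2 (0.132). Bmp6, a ligand known from endothelial cells of the liver for its role in iron control, had 6, 42, 10 and 10 counts in the males and 14, 25, 0 and 6 counts in the females. Its 2 highest libraries were those of litter 2, at 1.75 and 1.12 CPM against 0 to 0.575 CPM elsewhere, and 0 in the litter 3 female allows up to 0.206 CPM. The log2 difference of Bmp6 in litter 2 was 2.04 (SE 0.46, edgeR adjusted p = 0.0283), which lost the call without the litter 2 male (0.246), the litter 2 female (0.174) or the litter 4 female (0.0567), with no sex term (0.0558) and with DESeq2 (0.0958). Its range over litters of 2.51 (0.0277) was lost without the same libraries (0.209, 0.0874 and 0.0509), with no sex term (0.0501), with DESeq2 (0.065) and without litter 2 (0.738). Without the litter 3 male that litter has 0 counts of Bmp6, and the fitted difference and range, 3.82 and 7.82, are then no bound. Id1 and Id4 were not past the threshold in the litter test, Id1 with a range of 1.07 (edgeR adjusted p = 0.224) and Id4 with 0.30 (0.922).

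Ltbp4, a latent binding protein of elastic tissues, had the smallest adjusted p-value of the members in the litter test. It lies at chr7:27305136-27337692 (GRCm38). Males had 4.45, 11.8, 2.38 and 6.98 CPM and females 6.41, 16, 2.47 and 4.57 CPM in litters 1 to 4. Litter 2 lay above and litter 3 below all other libraries, with no overlap. Its range over litters was 2.50 (edgeR adjusted p = 0.000191), with 1.71 in litter 2 (SE 0.18, 0.000345) and -1.62 in litter 3 (SE 0.24, 0.000468), and none of these calls was lost under any alternative tried. In all, 5 of 42 members were higher in litter 2 (11.9%) against 3.30% of all genes, and 0 were lower against 0.879%, with 0 lower by DESeq2 as well and 1 at an unadjusted p-value under 0.05 in edgeR (Bambi). The count of 5 became 3 with DESeq2, 2 without the litter 2 male and 3 without the litter 2 female.

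Markers of other cells, endothelial ones above all, moved with this group. The endothelial sum was 31, 146, 32.7 and 58 CPM in the males of litters 1 to 4 and 105, 253, 36.4 and 42.4 CPM in the females. All 17 tested of the 19 endothelial markers were higher in litter 2, with a median log2 difference of 2.13. The 3 endocardial markers summed to 22.6 and 20.7 CPM in litter 2 and to between 7.18 and 12.8 CPM elsewhere. Fibroblast markers summed to 273 CPM in the male and 172 CPM in the female of litter 2, the highest of each sex, and 8 of 11 were higher there (median 0.91). Of 8 tested mural markers 3 were higher (median 1.03), as were 2 of 7 epicardial markers (median 0.20). The part of these cells in the levels of Eng, Acvrl1, Id3, Bmp6 and Ltbp4 was not tested.

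**Figure D3:**
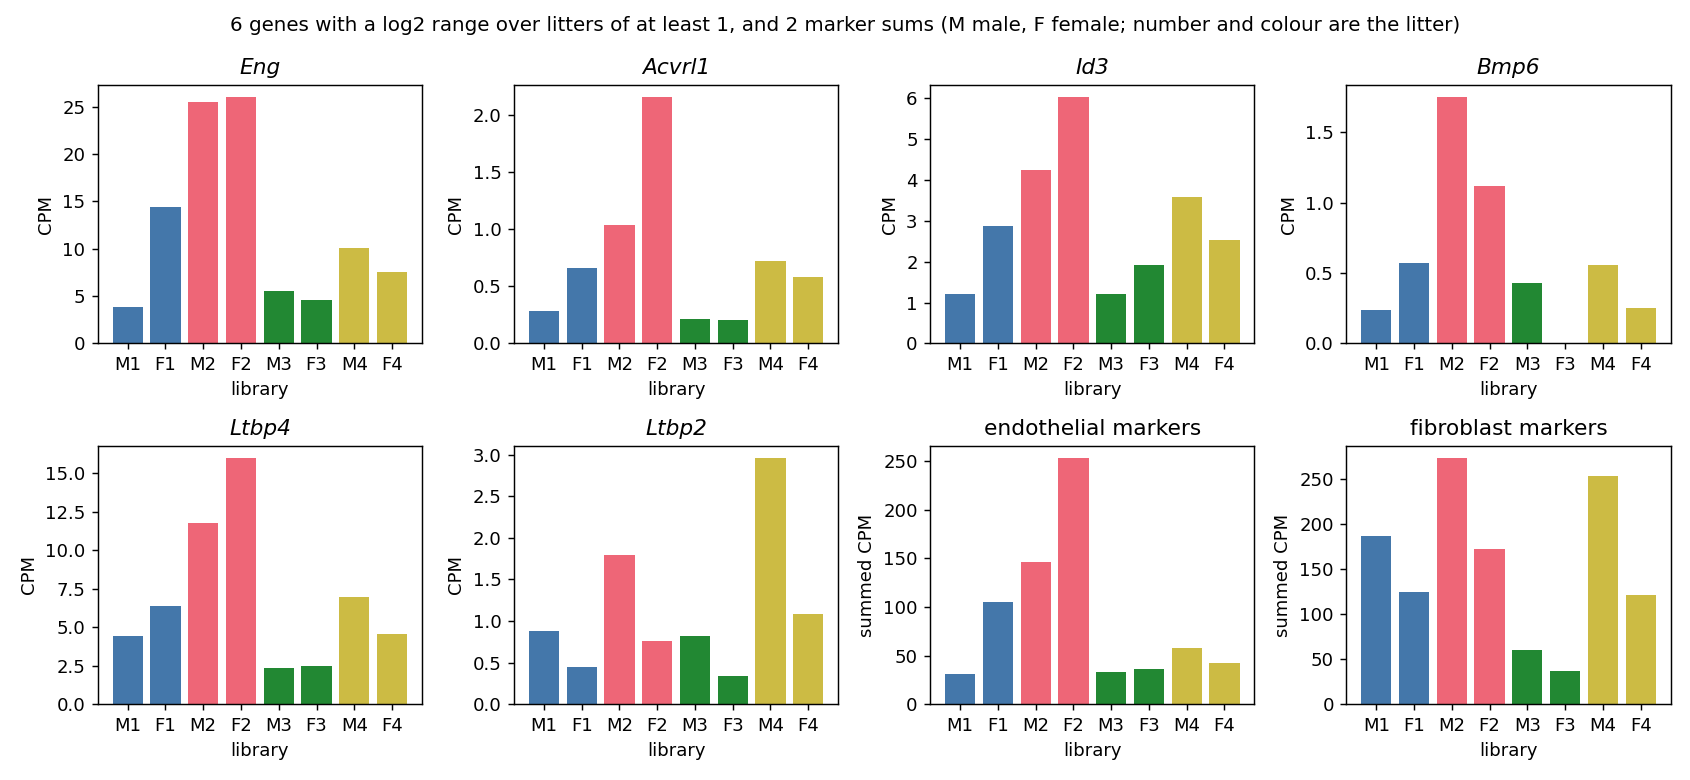
CPM of Eng, Acvrl1, Bmp6, Id3, Ltbp2 and Ltbp4 as 1 bar per library (M male, F female, number and colour for the litter), with the summed endothelial and fibroblast markers in the last panels. Eng, Acvrl1, Bmp6, Id3 and Ltbp4 have their 2 tallest bars in litter 2, where endothelial markers reach 146 and 253 CPM, and Ltbp2 has its tallest in the litter 4 male.

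Promoter sequence is shown for Eng, Id3 and Ltbp4, which moved together, and for Bmpr2, which moved otherwise. Each is the RefSeq window from 250 bases before to 50 after a transcript start (GRCm38.p6), read in the direction of the gene. Capitals mark matches to 3 motifs, each searched on both strands. One is the Smad box, GTCTG, which shows as its reverse complement where it lies on the opposite strand. The others are the GC-rich Smad palindrome, GGCGCC, and a palindrome of the Smad box, GTCTAGAC. No motif contains another.
Eng, chr2:32646345-32646644, forward strand: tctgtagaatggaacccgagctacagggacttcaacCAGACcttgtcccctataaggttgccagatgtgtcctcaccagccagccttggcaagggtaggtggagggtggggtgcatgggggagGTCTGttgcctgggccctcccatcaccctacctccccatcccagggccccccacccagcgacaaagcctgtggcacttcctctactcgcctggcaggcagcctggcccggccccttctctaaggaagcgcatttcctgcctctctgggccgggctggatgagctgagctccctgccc
Id3, chr4:136143572-136143871, forward strand: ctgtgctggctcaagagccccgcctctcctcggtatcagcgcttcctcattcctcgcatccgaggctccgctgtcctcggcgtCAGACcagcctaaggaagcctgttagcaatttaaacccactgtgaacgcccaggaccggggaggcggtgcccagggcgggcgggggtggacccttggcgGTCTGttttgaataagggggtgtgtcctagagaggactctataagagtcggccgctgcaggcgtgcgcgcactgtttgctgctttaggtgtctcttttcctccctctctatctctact
Ltbp4, chr7:27333614-27333913, reverse strand: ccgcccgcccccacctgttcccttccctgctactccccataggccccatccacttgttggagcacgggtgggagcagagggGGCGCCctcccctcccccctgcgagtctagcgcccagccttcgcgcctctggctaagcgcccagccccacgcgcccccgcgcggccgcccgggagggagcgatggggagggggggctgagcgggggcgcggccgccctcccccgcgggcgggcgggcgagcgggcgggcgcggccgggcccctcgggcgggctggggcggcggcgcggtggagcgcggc
Bmpr2, chr1:59764029-59764328, forward strand: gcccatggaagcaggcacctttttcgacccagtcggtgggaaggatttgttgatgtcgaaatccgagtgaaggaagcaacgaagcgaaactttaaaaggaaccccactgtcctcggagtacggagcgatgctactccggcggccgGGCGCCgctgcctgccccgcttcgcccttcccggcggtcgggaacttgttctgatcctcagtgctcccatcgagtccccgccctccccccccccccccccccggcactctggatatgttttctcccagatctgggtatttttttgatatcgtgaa
Eng and Id3 each hold 2 Smad boxes, and Ltbp4 and Bmpr2 each hold 1 GC-rich palindrome. Of the 3 windows listed for Ltbp4, the printed one overlaps a second with the same match, and the other has none of these letters. Windows were at hand for 35 of the 47 members, 43 in all. GGCGCC was found in 13 of the 43 windows (30.2%), against 11.9% of 32851 windows of all genes, and GTCTG in 21 (48.8%, against 49.6%). GTCTAGAC occurred in 1 member window, that of Smad6, and in 0.213% of all windows. Median GC content was 64.3% in member windows and 52.7% in all, and its part in the count of GGCGCC was not tested. A match is a string of letters, not a shown binding site.

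The second group was high in litter 3. Against the mean of the other litters, 11 of 42 members rose there (26.2%, against 13.6% of all genes) and 5 fell (11.9%, against 14.8%). Those that rose were the receptors Tgfbr3, Acvr1b, Acvr2a, Acvr2b and Bmpr2, the activin inhibitor Fstl3, the signal carriers Smad4 and Smad5, the feedback inhibitors Smad7 and Smurf2, and Id2. All 3 activin and BMP type II receptors are among them. Those that fell were Eng, Acvrl1, Id3, Ltbp2 and Ltbp4. With DESeq2, 4 rose and 2 fell. The rises of Acvr1b, Acvr2a, Acvr2b, Fstl3, Smad7, Smurf2 and Id2 were lost there (adjusted p 0.0552 to 0.115), as were the falls of Eng (0.1), Acvrl1 (0.0699) and Ltbp2 (0.173). With no sex term the calls of Acvr1b (0.0511), Smurf2 (0.075), Id2 (0.144), Id3 (0.0513) and Ltbp2 (0.241) were lost, and with no filter that of Acvr1b (0.0617). The 11 rises became 5 without the litter 1 male, the litter 3 male or the litter 3 female, and 7 without the litter 1 female or the litter 2 male. The 5 falls became 2 without the litter 1 female or the litter 3 male and 1 without the litter 3 female. The median of the 42 members was 0.07 on the log2 scale, and that of all genes 0.00.

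Bmpr2, at chr1:59763400-59879014 (GRCm38), had 101, 103, 135 and 87.7 CPM in the males of litters 1 to 4 and 95.1, 97.7, 117 and 65.7 CPM in the females. Both litter 3 libraries were the highest of the 8 and both litter 4 libraries the lowest. It rose in litter 3 by 0.46 (SE 0.07, edgeR adjusted p = 0.000597) and fell by 0.50 in litter 4 (SE 0.07, 0.00387), with a range over litters of 0.72 (0.000918), calls that held under every alternative tried. Smad4, on chromosome 18, had 54.0, 53.3, 65.7 and 49.3 CPM in the males and 48.9, 53.5, 66.9 and 47.4 CPM in the females. The litter 3 pair lay clear of the other 6 libraries. Smad4 rose in litter 3 by 0.38 (SE 0.06, edgeR adjusted p = 0.00122), a call that also held under every alternative, while the range over litters of 0.46 (0.00495) was lost without the litter 3 female (0.0573) or the whole litter (0.443).

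Tgfbr3, on chromosome 5, had 47.5, 46.9, 63.7 and 51.5 CPM in the males and 47.7, 55.7, 62.8 and 52.9 CPM in the females. Litter 3 was highest in both sexes. The difference was 0.33 (SE 0.07, edgeR adjusted p = 0.00453) and lost the call without the litter 3 male (0.0907), as did the range of 0.41 (0.0156) without that male (0.148), the litter 1 female (0.0605), litter 1 (0.0506) or litter 3 (0.508). Smad5, on chromosome 13, had 73.6, 78.0, 84.9 and 66.1 CPM in the males and 74.5, 74.7, 85.5 and 69.9 CPM in the females. The pairs of litters 3 and 4 were again at the top and bottom without overlap. Smad5 rose in litter 3 by 0.23 (SE 0.06, edgeR adjusted p = 0.0149), a call lost without the litter 3 male (0.111) or the litter 3 female (0.126). Its range of 0.33 (0.0296) lost the call without the male or female of litter 1 or 3 or the litter 4 male (0.0737 to 0.117), or without litter 3 (0.311) or 4 (0.0951).

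Smad7, which switches receptors off and is itself a target of the pathway, had 15.2, 15.0, 17.5 and 13.7 CPM in the males and 12.7, 14.6, 18.1 and 12.3 CPM in the females. It was highest in litter 3 in both sexes, by 0.36 (SE 0.09, edgeR adjusted p = 0.0153), which was lost without the litter 3 female (0.212). The range of 0.45 (0.0424) was lost when any 1 of the 8 libraries was left out (0.051 to 0.241), without litter 3 (0.484) or 4 (0.0822), with no sex term (0.0681) and with DESeq2 (0.159). Smurf1 went the other way: males had 46.5, 46.2, 39.9 and 39.1 CPM and females 45.4, 48.3, 38.1 and 41.4 CPM, so that litters 1 and 2 lay above litters 3 and 4 without overlap. This range of 0.27 (edgeR adjusted p = 0.042) was lost when any library but the litter 4 female was left out (0.0632 to 0.121), without any 1 litter (0.0507 to 0.146), with no sex term (0.06) and with DESeq2 (0.135). Smurf2 had 57.8, 57.3, 59.9 and 52.1 CPM in the males and 52.8, 54.7, 62.7 and 45.8 CPM in the females. The rise of Smurf2 in litter 3 by 0.20 (SE 0.07, edgeR adjusted p = 0.0447) was lost without any library but the males of litters 3 and 4 (0.0585 to 0.515). Without the litter 3 female, which gives the highest of these, the difference of Smurf2 was 0.10.

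The remaining rises of litter 3 were small or rested on 1 library. Acvr1b had 53.9, 53.8, 62.5 and 53.0 CPM in the males and 52.6, 57.2, 60.7 and 53.1 CPM in the females, a difference of 0.19 (SE 0.06, edgeR adjusted p = 0.038). Acvr2a had 38.1, 35.3, 45.4 and 37.9 CPM in the males and 38.7, 39.3, 42.1 and 34.2 CPM in the females, a difference of 0.24 (SE 0.07, 0.0332). Litter 3 was highest in both sexes for both receptors, yet without the litter 3 male the adjusted p was 0.271 for Acvr1b and 0.303 for Acvr2a, and each call was lost without most other libraries too. For Acvr1b it held only without the female of litter 2 or 4, and for Acvr2a only without the litter 2 female or the litter 4 male. Acvr2b had 2.77, 3.03, 3.42 and 2.62 CPM in the males and 2.55, 2.16, 5.16 and 3.02 CPM in the females. It rose by 0.64 (SE 0.22, edgeR adjusted p = 0.0435), but by 0.27 with an adjusted p of 0.58 without the litter 3 female, the highest library. Without the litter 3 male the difference was 1.00. It kept the call only without the male of litter 2 or 3. Fstl3 had 5.29, 6.52, 10.1 and 7.20 CPM in the males and 5.88, 7.28, 7.49 and 4.87 CPM in the females. It rose by 0.52 (SE 0.16, edgeR adjusted p = 0.0298), but had a difference of 0.33 (0.377) without the litter 3 male, its highest library. It lost the call as well without the litter 1 male (0.0755), the litter 2 male (0.0618) or the litter 4 female (0.0531).

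Id2, a BMP target that in contrast to Id3 was high in litter 3, had 5.94, 8.10, 11.7 and 8.87 CPM in the males and 3.90, 5.93, 6.19 and 6.84 CPM in the females. Litter 1 was lowest in both sexes, and the litter 3 male was the highest library. It fell by 0.69 in litter 1 (SE 0.14, edgeR adjusted p = 0.00903), a call lost without the male (0.137) or female (0.111) of that litter or with no sex term (0.109). The rise of Id2 in litter 3 by 0.45 (SE 0.14, 0.0277) was lost without the males of litters 1 to 4 in turn (0.0558, 0.0607, 0.57 and 0.068), and its size was 0.19 without the litter 3 male. Its range over litters of 0.86 (edgeR adjusted p = 0.0128) was lost without the male (0.0908) or the female (0.0698) of litter 1, without that litter (0.34) or with no sex term (0.146).

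Litter 2 is 1 of the 3 litters whose mean litter 3 is set against, so a high level there also lowers the difference of litter 3 for Eng, Acvrl1, Id3 and Ltbp4. Litter 4 is another, and it was highest for Ltbp2. For that gene litter 3 lay near litter 1, at 0.824 against 0.882 CPM in the males and 0.344 against 0.452 CPM in the females. Eng fell by 1.28 (SE 0.35, edgeR adjusted p = 0.0183), Acvrl1 by 1.77 (SE 0.51, 0.0228) and Id3 by 1.03 (SE 0.32, 0.0296), and Ltbp4 as given above. The litter 1 male had less Eng (3.89 CPM) than either litter 3 library and less Id3 (1.20 CPM) too, so litter 3 was not below all others for these 2 genes. Without the litter 3 female their adjusted p-values were 0.173 for Eng, 0.226 for Acvrl1 and 0.109 for Id3. Acvrl1 also lost the call without the litter 1 female (0.0551) or the litter 3 male (0.0818), and Id3 without the litter 1 female (0.065) or the litter 3 male (0.199). Ltbp2 fell by 1.03 (SE 0.32, edgeR adjusted p = 0.0319), which was lost without any library but the litter 4 female (0.0505 to 0.296).

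Cell type markers moved in litter 3 too. There 13 of 17 tested endothelial markers fell (median -1.45), as did 9 of 11 fibroblast markers (median -1.83), 4 of 8 mural markers (median -1.04) and 1 of 3 endocardial markers (median -1.03). The mean compared holds litter 2, where endothelial markers summed to 146 and 253 CPM. In litter 3 they summed to 32.7 and 36.4 CPM, above the 31 CPM of the litter 1 male. Of 7 tested epicardial markers 3 fell and 1 rose (median -0.51). Their sums did not fall, at 23.8 and 23.5 CPM in litter 3 against 14.8 to 20 CPM in the other litters. Mural markers summed to 615 and 598 CPM in litter 3, within the 541 to 665 CPM of the other litters. Erythroid markers rose for 2 of 6 (median 0.94). They summed to 531 CPM in the litter 3 male, against 98.5 to 246 CPM in the other 7, of which the litter 3 female had 185 CPM. Fibroblast markers summed to 59.6 and 36.6 CPM in litter 3, against 121 to 273 CPM in the other litters. Of the 10 cardiomyocyte markers, 4 fell and 0 rose (median -0.09), while 2 of 4 ventricular markers rose and 2 fell (median -0.03), with sums of 13992 and 14710 CPM against 16746 to 20263 CPM in the other litters. Atrial markers summed to 1363 and 1662 CPM against 252 to 863 CPM, although 2 of 7 passed as higher and 0 as lower (median 0.23). The part of these cells in the differences of litter 3 was not tested.

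**Figure D4:**
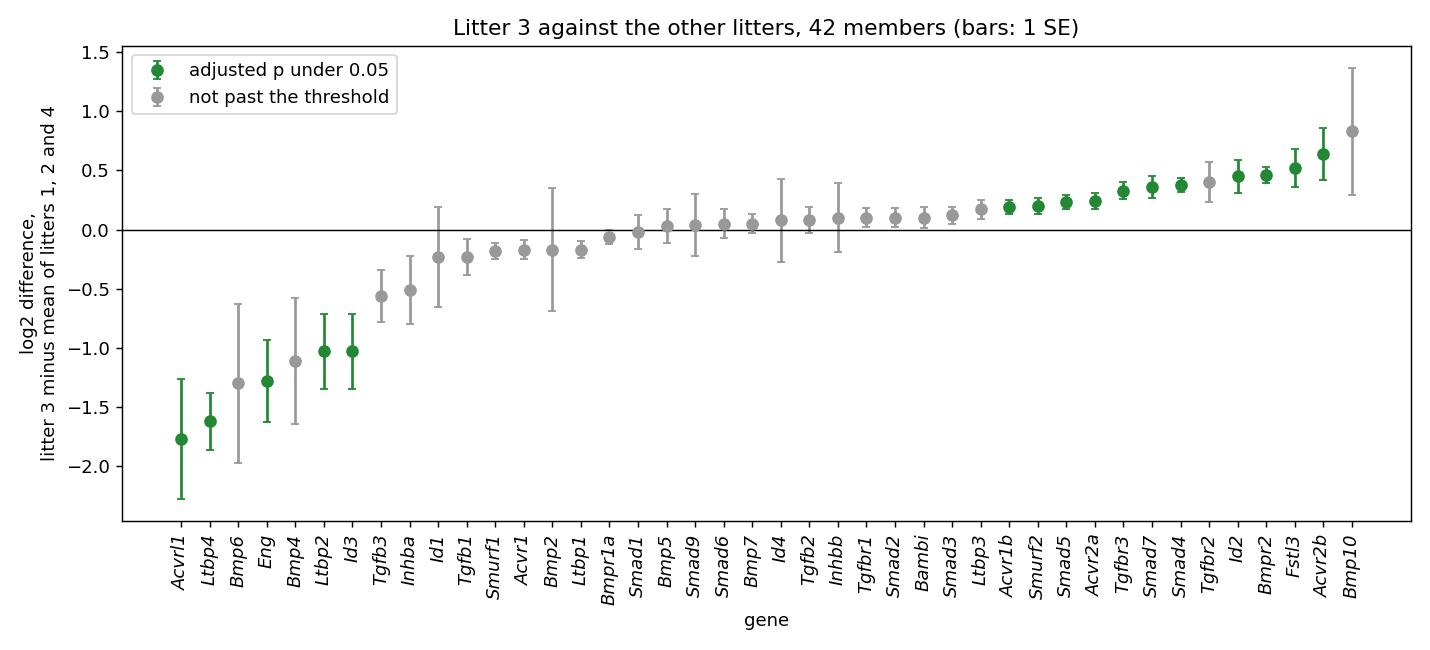
Log2 difference of litter 3 from the mean of litters 1, 2 and 4 for the 42 tested members, with bars of 1 SE and green points for those past the threshold. The 11 that rose lie between 0.19 and 0.64, and the 5 that fell between -1.77 and -1.03, with wider bars.

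In litter 4, 3 members rose (7.14%, against 4.71% of all genes) and 2 fell (4.76%, against 5.80%). Scaled by library size in place of TMM, 3 rose and 6 fell, and with DESeq2 1 rose and 1 fell. When the litter 4 male or the litter 4 female was left out, 1 rose, and 1 fell without the litter 1 female, the litter 2 male or the female of litter 3 or 4. Bambi, a decoy receptor without a kinase that dampens TGF-beta and BMP signals, had 29.1, 26.6, 37.1 and 40.1 CPM in the males of litters 1 to 4 and 29.3, 31.9, 34.5 and 48.4 CPM in the females. Litter 4 was highest, litter 3 next, and litters 1 and 2 lowest, with no overlap between these 3 steps. Bambi, which lies on chromosome 18, rose in litter 4 by 0.50 (SE 0.08, edgeR adjusted p = 0.00524), which became 0.39 (0.088) without the female of that litter, while its range over litters of 0.60 (0.0025) held under every alternative. Bmp4, a ligand with 3 to 22 counts, had 0.321, 0.499, 0.130 and 0.949 CPM in the males and 0.493, 0.315, 0.412 and 0.923 CPM in the females. Both litter 4 libraries lay above all others. Its rise by 1.42 (SE 0.39, edgeR adjusted p = 0.0418) was lost without any library but the litter 2 male and the litter 3 female (0.0698 to 0.256), or with no sex term (0.055). The fall of Smad4 by 0.23 (SE 0.07, 0.0454) was lost without any 1 of the 8 (0.0522 to 0.213), with no sex term (0.0733) and with DESeq2 (0.0711). The mean that litter 4 is set against holds litter 3, where Smad4 was high. At 49.3 and 47.4 CPM, litter 4 overlapped litter 1 (54 and 48.9 CPM) for this gene, and without litter 3 its range over litters was 0.14. DESeq2 gave no adjusted p-value for Bmp4 or Ltbp2 in litter 4.

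Ltbp2, a matrix protein of the latent binding family that does not itself bind TGF-beta, had 0.882, 1.79, 0.824 and 2.96 CPM in the males and 0.452, 0.764, 0.344 and 1.09 CPM in the females. The male was higher in every litter, and litter 4 was highest in both sexes. It rose in litter 4 by 1.32 (SE 0.26, edgeR adjusted p = 0.00981), a call lost without the litter 4 male (0.186) or with no sex term (0.112). Its range of 1.76 (edgeR adjusted p = 0.00632) was lost without that male (0.0575), without litter 4 (0.0826) or with no sex term (0.121). Fibroblast markers summed to 253 and 121 CPM in litter 4, and 8 of 11 were higher there (median 0.69). Of 4 ventricular markers 3 were higher (median 0.25), and of 10 cardiomyocyte markers 4 were higher and 2 lower (median 0.11). Their part in the level of Ltbp2 and the other differences of litter 4 was not tested.

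In litter 1, 0 members rose and 3 fell (7.14%), against 7.86% of all genes higher and 5.41% lower. No member rose there by DESeq2 or at an unadjusted p-value under 0.05 in edgeR (0 of 42). The 3 falls became 0 without the litter 1 male, 1 without the litter 1 female and 6 without the litter 2 male. Ltbp3, on chromosome 19, had 73.9, 85.8, 101 and 87.2 CPM in the males and 74.0, 91.1, 92.7 and 107 CPM in the females. Both litter 1 libraries lay below all others. Ltbp3 fell by 0.35 in litter 1 (SE 0.08, edgeR adjusted p = 0.0133), lost without the male (0.114) or female (0.229) of that litter, as was its range of 0.39 (0.0203, against 0.0873 and 0.173, and 0.489 without litter 1). Bambi fell by 0.30 (SE 0.09, 0.0378), lost without the male (0.166) or female (0.42) of litter 1, the litter 2 female (0.0728), the litter 4 female (0.0692) or the litter 3 male (0.0694), and with no sex term (0.0746) or DESeq2 (0.076). Id2 was described above. Among cell type markers in litter 1, 2 of 7 atrial markers were lower (median -0.65), as were 2 of 8 mural markers (median -0.11). Of 4 ventricular markers 2 were lower and 1 higher (median -0.12), and of 10 cardiomyocyte markers 1 was lower and 3 higher (median 0.05). Fibroblast markers were higher for 3 of 11 (median 0.35). Their part in the falls of litter 1 was not tested.

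The TGF-beta branch had 2 more members that passed. Tgfbr2, the type II receptor that binds TGF-beta, had 5.37, 11.6, 9.36 and 8.04 CPM in the males and 7.11, 11.4, 11.1 and 4.91 CPM in the females. All libraries of litters 2 and 3 lay above all of litters 1 and 4, with a range of 0.88 (edgeR adjusted p = 0.0125) that held under every alternative and was 1.33 without the litter 4 male. Tgfb1 had 4.85, 6.73, 5.37 and 7.59 CPM in the males and 4.64, 8.72, 5.5 and 6.58 CPM in the females, so that this ligand was high in litters 2 and 4, not 2 and 3. The range of Tgfb1, 0.70 (edgeR adjusted p = 0.0297), was lost without the male (0.0763) or female (0.125) of litter 1, the litter 2 female (0.077) or litter 1 (0.144), and with DESeq2 (0.106).

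Many core members were not past the threshold in the litter test. Of the 10 highest per kilobase these were Bmpr1a, Bmp7, Acvr1b, Smurf2 and Acvr2a. Bmpr1a had 231, 237, 223 and 216 CPM in the males and 216, 199, 188 and 182 CPM in the females, with a range over litters of 0.17 (edgeR adjusted p = 0.196). Bmp7 had 53.9, 52.8, 57.6 and 55.9 CPM in the males and 57.5, 56.2, 54.3 and 47.4 CPM in the females, with a range of 0.12 (0.647). Tgfbr1, Smad1 and Smad9 had ranges of 0.11, 0.18 and 0.15 (0.744, 0.783 and 0.969). Bmp10 had a wide range of 1.87 (edgeR adjusted p = 0.123). Its litter 2 hearts were far apart, at 26.2 CPM (630 counts) in the male and 1.93 CPM in the female, with 2.21 to 9.83 CPM in the other 6 libraries. In the litter 2 male the atrial markers summed to 863 CPM, against 252 CPM in its litter mate. In the litter 3 hearts they summed to 1363 and 1662 CPM, where Bmp10 had 9.71 and 9.83 CPM. Their part in the level of Bmp10 was not tested.

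The second comparison was between the sexes, male minus female. None of the 42 members passed in edgeR's test (0%), against 0.0436% of all genes, and 0 passed with DESeq2. An unadjusted p-value under 0.05 was found for 7 members (16.7%), against 2.22% of all genes: Tgfb2, Bmpr1a, Bmp2, Bmp5, Inhba, Id2 and Ltbp2. When each male was paired with the female of its litter (litter as a block), 0 members passed again (0.211% of all genes did), and 8 had an unadjusted p-value under 0.05 (19%, against 11.6%), the same 7 and Bmpr2. The median over members was 0.03 on the log2 scale, against 0.00 over all genes.

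In all 4 litters the male was higher than the female for 9 members (21.4%), against 10.9% of all genes, and lower for 0, against 9.36%. The 9 are Tgfb2, Bmpr1a, Bmpr2, Bmp2, Bmp5, Inhba, Smad2, Id2 and Ltbp2, and they are the same with library size alone as the scaling. Tgfb2 had 13.4, 14.0, 15.1 and 13 CPM in the males of litters 1 to 4 and 12.0, 11.2, 10.6 and 9.44 CPM in the females. The sexes did not overlap, with a log2 difference of 0.36 (SE 0.11, edgeR adjusted p = 1), and of 0.36 (SE 0.09, adjusted p = 0.223) with the block. Bmpr1a, given above, overlapped at 216 CPM, with 0.21 (SE 0.05, edgeR adjusted p = 0.188) under the block. Inhba, which forms activin A, had 1.64, 1.37, 1.21 and 1.62 CPM in the males and 1.03, 0.944, 0.550 and 1.01 CPM in the females, without overlap (0.72, SE 0.23, 0.305).

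Bmp2 differed most in size: males had 18, 73, 40 and 42 counts and females 12, 2, 5 and 20 counts. That is 0.722 to 3.03 CPM against 0.0899 to 0.839 CPM, so the sexes overlapped, the litter 4 female lying above the litter 1 male. Its log2 difference was 2.06 with the block (SE 0.45, edgeR adjusted p = 0.14). Ltbp2 and Id2 had 1.25 (SE 0.25, 0.0961) and 0.58 (SE 0.12, 0.108) with the block, the smallest adjusted p-values of the 42 members. Atrial markers summed to more in the male in litters 1, 2 and 4 and to less in litter 3, and fibroblast markers to more in the male of every litter, where 7 of 11 passed with the block (187 against 124, 273 against 172, 59.6 against 36.6 and 253 against 121 CPM). Endothelial markers summed to less in the male in litters 1, 2 and 3 and to more in litter 4 (31 against 105, 146 against 253, 32.7 against 36.4 and 58 against 42.4 CPM). Of the 17 tested, 1 passed with the block, lower in the male of every litter (log2 difference -2.21). The part of these cells in the sex differences was not tested.

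**Figure D5:**
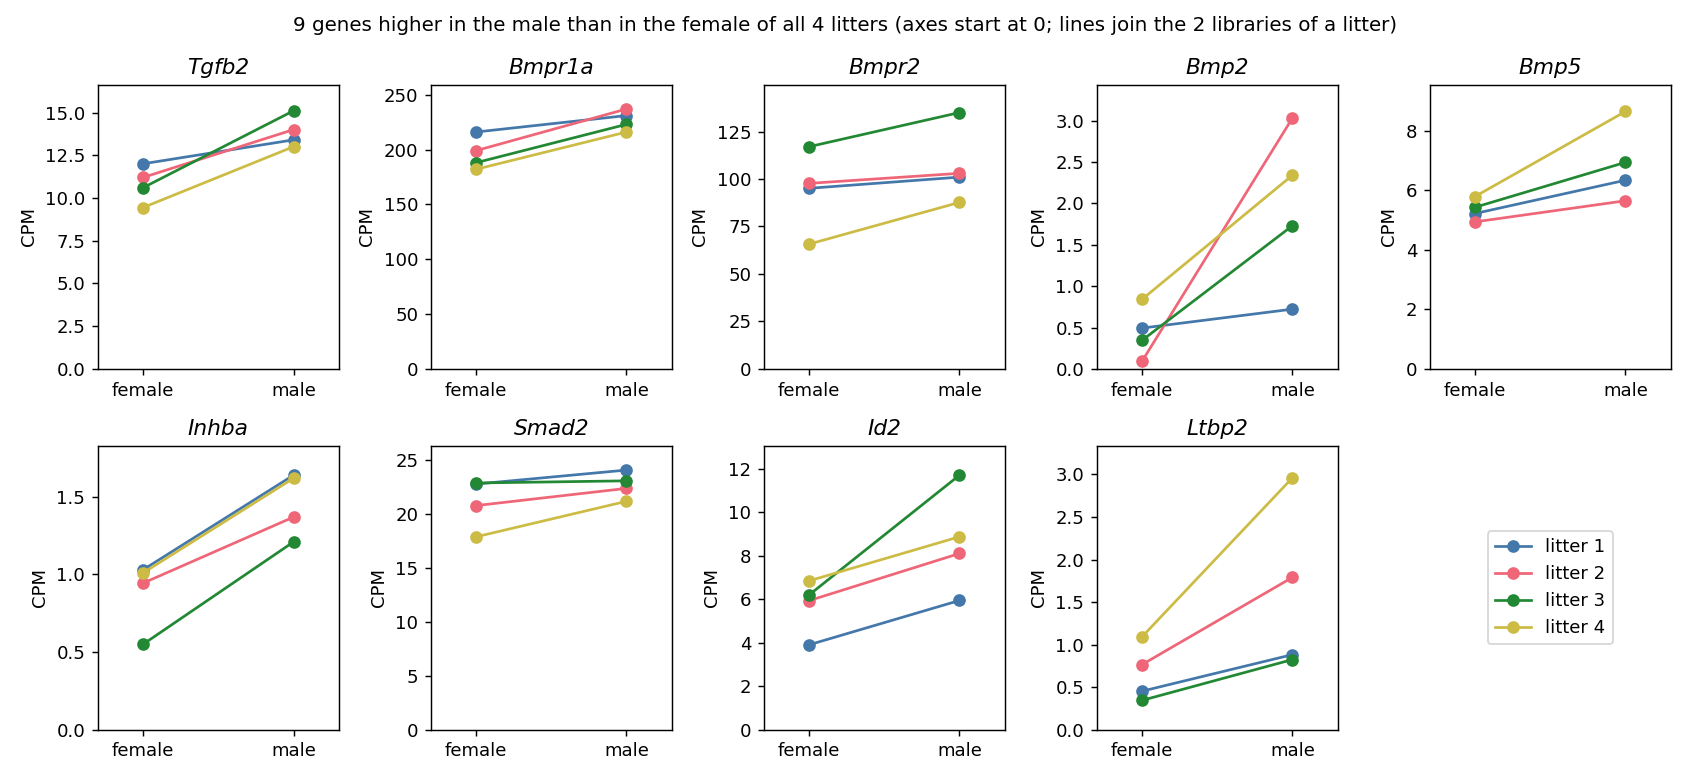
CPM of the 9 genes that were higher in the male than in the female of all 4 litters, with a line joining the 2 libraries of each litter (colour) and axes from 0. The lines of Tgfb2 and Inhba separate the sexes without overlap, while those of Bmp2 and Ltbp2 differ most in slope; none of the 9 passed the adjusted threshold.

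The wider pathway was read from 5 further lists. Of 20 other ligands, 5 were tested and 0 differed between litters by edgeR, the smallest adjusted p being that of Gdf9 (0.152) and 0 having an unadjusted p-value under 0.05, and 6 of the 20 were at 0 in all libraries. Of 7 other receptors and coreceptors, 4 were tested and 2 passed (50%, against 32.1% of all genes), both lower in litter 3. These were the BMP coreceptors Hfe2 (hemojuvelin), at 52.4 ± 4.32 CPM in litter 3 (SD, n = 2) against 71.5 to 74.5 CPM elsewhere (edgeR adjusted p = 0.00673), and Rgma, at 22.8 ± 3.01 against 30.6 to 38.5 CPM (0.0227). Here and in the lists below, the SD of a litter is taken over its male and its female, so it includes any sex difference. Hfe2 lost the call without the litter 3 male (0.0561) or litter 3 (0.918). Rgma lost it without the litter 3 female (0.132), which took its range from 0.73 to 0.48, the litter 4 female (0.0528) or litter 3 (0.237), and with DESeq2 (0.17).

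Among 27 other extracellular regulators, 20 were tested and 10 differed by litter (50%, against 32.1% of all genes). In litter 1, 3 were higher and 2 lower, against 7.86% and 5.41% of all genes. In litter 2, 4 were higher and 0 lower (3.30% and 0.879% of all genes), and in litter 4, 5 and 1 (4.71% and 5.80%). In litter 3, 2 were higher and 7 lower, against 13.6% and 14.8% of all genes (median -0.20, against 0.00 for all genes). The small proteoglycans biglycan and decorin, which bind TGF-beta, were lowest there: Bgn had 3.28 ± 1.24 CPM in litter 3, against 9.25 to 17.7 CPM elsewhere (edgeR adjusted p = 6.74e-06). Dcn had 2.84 ± 1.38 against 7.50 to 15.2 CPM (1.09e-05). Itgb6, the subunit of the integrin that frees latent TGF-beta, had 1.03 ± 0.293 against 4.45 to 7.59 CPM (0.000102). All 3 held under every alternative, and Dcn is also 1 of the 11 fibroblast markers.

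Of 18 intracellular regulators, 17 were tested and 6 differed by litter, a share of 35.3% near the 32.1% of all genes. In litter 3, 5 were higher and 1 lower, against 13.6% and 14.8% of all genes. The kinase partner Tab1 was lowest in litter 1 (41.7 ± 3.87 against 48.9 to 56.2 CPM, SD, n = 2; edgeR adjusted p = 0.0147), lost without the male (0.13) or female (0.0501) of litter 1, or without litter 1 (0.228) or 4 (0.0577). The corepressor Tgif2 was highest in litter 3 (18.5 ± 1.72 against 13.2 to 15.3 CPM, 0.0206), lost without the litter 1 male (0.0554) or the litter 3 female (0.156), without litter 3 (0.35) and with DESeq2 (0.0713). Fkbp1a, which holds type I receptors inactive, was lowest in litter 3 (159 ± 4.24 against 180 to 198 CPM, 0.0274), lost without the male or female of litter 1 or 3 or the litter 2 female (0.0592 to 0.185), and without litter 3 (0.407).

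Of 25 other target genes, 20 were tested and 12 differed by litter (60%, against 32.1% of all genes). In litter 1, 5 were higher and 3 lower, against 7.86% and 5.41% of all genes. In litter 2, 7 were higher and 1 lower (3.30% and 0.879% of all genes), and in litter 4, 7 and 1 (4.71% and 5.80%). In litter 3, 2 were higher and 8 lower, against 13.6% and 14.8% of all genes (median -0.27). Acta2, smooth muscle actin, had 356 ± 18.2 CPM in litter 3 and 831 to 966 CPM elsewhere (SD, n = 2; edgeR adjusted p = 4.66e-06), a range that lost the call only without litter 3 (0.146). The collagens Col3a1 and Col1a2 had 11.7 ± 3.24 and 5.88 ± 0.934 CPM in litter 3, against 43.1 to 61.1 and 21.4 to 29.7 CPM (6.56e-06 and 7.83e-06). Of this list, 4 genes are fibroblast markers as well. By sex, 0 genes of the 5 lists passed in edgeR without the block (5 of 66 tested had an unadjusted p-value under 0.05). With the block 8 of the 66 passed (12.1%, against 0.211% of all genes), each higher in the male of all 4 litters. They were the extracellular regulators Dcn, Bgn, Fmod and Thbs1 and the targets Col1a1, Col1a2, Col3a1 and Postn, at log2 differences of 0.67 to 1.97 (edgeR adjusted p 0.000315 to 0.0407). Of these 8, Dcn and the 4 targets are fibroblast markers, a list of which 7 of 11 passed in the same fit, and the part of those cells was not tested.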

How the data were processed

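RNA was sequenced from 8 libraries of purified mouse cardiomyocytes, 1 per heart. The authors deposited raw read counts per gene symbol, whole numbers with no normalization. Per the labels' protocols, a stranded total RNA kit and single-end reads were used, although the labels name poly(A) RNA as the molecule. The submitters' processing notes name STAR 2.7.3a and mm10. The counting program, the annotation and the use of strand are not given in the sources used here.

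Counts were analysed with edgeR 4.0.16 in R 4.3.3. Genes were filtered by filterByExpr on sex (13771 kept) and scaled by TMM, and p-values were adjusted by Benjamini-Hochberg over all genes tested, with a threshold of 0.05. The sex test, without a term for litter, had 6 residual degrees of freedom. A model with litter and sex, with 3, gave the joint test of the litter coefficients and the contrast of each litter with the mean of the other 3, and these 4 contrasts share libraries. SE is the size of the log2 change over the square root of F. Gene positions and exon lengths came from GENCODE M21 on GRCm38, promoters from RefSeq (GRCm38.p6), and none from chromosome 18 was used. DESeq2 1.42.0, another scaling, other filters, no sex term, a litter block and fits without single libraries or litters were alternatives, and the code was tested on simulated counts.

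Every listed gene could be named. Values in all libraries are given for genes past the threshold and for the 10 highest per kilobase, and up to 3 genes per further list were named by the smallest adjusted p in the litter test. The genes and lists were chosen with earlier results of these data known. Sample numbers are litter numbers in the labels and pair a male with a female. Deviations from the sex means correlated at 0.506, 0.503, 0.696 and 0.367 within litters 1 to 4, and at -0.482 to 0.27 across litters. Counts of 14226342 to 24910243 per library set a floor of 3 counts at 0.12 to 0.206 CPM per library, for counting error only. Day of preparation is not given, so litter and handling cannot be told apart.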

Additional observations from a re-analysis of the deposited data

Results flagged for a closer look

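Each group of 4 libraries of a sex was searched for a library far outside the other 3, over the described genes and marker sums. This was found in 2 of 80 groups, where chance gives about 1 in 20, or 4. Acvr1b had 62.5 CPM in the male of litter 3, against 53.0 to 53.9 CPM in the other males, a gap of 0.905 of the whole range. The female of litter 3 had 60.7 CPM, against 52.6 to 57.2 CPM in the other females. The summed atrial markers had 1662 CPM in the female of litter 3, against 252 to 444 CPM in the other females, a gap of 0.863 of the range.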

How the results depend on the processing

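None of the 29 single-litter differences and 9 sex differences followed changed sign under any alternative. They were picked because they passed, or because the male was higher in all 4 litters, and a range over litters has no sign to change. The count of members that differed by litter was 17, and 21 with library size scaling, 24 with no filter, 15 with a mean of at least 50 counts, 12 without the sex term and 13 with DESeq2. Without single libraries it ran from 11 to 17, lowest without the male or the female of litter 1. Over all genes it was 4427, 1899 without litter 3, and 2964 to 4097 without single libraries. By sex, 6 genes and 0 members passed, 29 and 0 with litter as a replicate block, and 5 to 7 genes and 0 members without single libraries; the block changed no call on a member. Counts for single litters moved more. In litter 1, 3 members were lower, 8 with no filter and 1 without the sex term. In litter 2, 5 were higher, 8 with no filter, 3 with a mean of at least 50 counts and 3 with DESeq2, and 0 were lower, 1 with no filter. In litter 3, 11 were higher and 4 with DESeq2, and 5 were lower, 3 with a mean of at least 50 counts, 3 without the sex term and 2 with DESeq2. In litter 4, 3 were higher and 1 in each of those 3 settings, and 2 were lower, 6 with library size, 5 with no filter, 4 with a mean of at least 50 counts, 1 without the sex term and 1 with DESeq2. Without single libraries these counts were 0 to 6 lower in litter 1, 2 to 6 higher and 0 to 1 lower in litter 2, 5 to 9 higher and 1 to 6 lower in litter 3, and 1 to 4 higher and 1 to 2 lower in litter 4. Of 286 alternative values for the 17 ranges, 223 stayed past the threshold and 63 did not; for 29 single-litter differences, 261 of 369 stayed. A stricter filter drops genes of few counts, and a left-out library leaves its litter with 1, which is assumed to vary like the rest. The cause of these shifts was not tested. With no filter, 444 to 631 of 24853 genes had no usable F value in the tests of single litters, and 0 in that of sex. Depth limits Acvrl1, Bmp2, Bmp4, Bmp6 and Ltbp2, with as few as 0 to 5 counts in a library.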
